A study of Homo sapiens with 6 samples.

Results

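The genes described here are 52 interferon-stimulated and nucleic acid sensing genes, chosen by symbol from the 42656 rows of a table of raw read counts. They comprise sensors of foreign RNA and DNA, the interferon receptor with its signalling proteins, and genes that interferon switches on. All 52 were found, RIGI under its older symbol DDX58, and 49 passed the filter on low counts and were among the 15679 genes tested. Messenger RNA was sequenced from TOV21G, an established line derived from an ovarian clear cell carcinoma. In the shMEX3A arm the cells received a lentiviral short hairpin RNA (TRCN230492) against MEX3A, an RNA-binding protein. In the shCtrl arm they received a scrambled hairpin (TRC2-Scramble_ASN0003), and the labels call these cells WT. Both arms were thus transduced with lentivirus, at a multiplicity of infection of 50, and RNA was taken 3 days later, so cells without virus are not part of the comparison. Each arm has 3 libraries and 1 hairpin, so the loss of MEX3A and any other effect of that hairpin cannot be told apart.

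Vertebrate cells detect viral RNA in the cytosol with RIG-I-like receptors, in endosomes with Toll-like receptors, and DNA with cGAS. The sensors signal through adaptors such as MAVS and STING to the transcription factors IRF3 and IRF7, which switch on the genes for type I interferons. Secreted interferon binds the receptor made of IFNAR1 and IFNAR2, and the kinases JAK1 and TYK2 then activate a complex of STAT proteins with IRF9. That complex binds the interferon-stimulated response element (ISRE) in the promoters of interferon-stimulated genes, whose products block viral replication at many steps. In tumour cells these genes can also be active without infection.

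Library totals ran from 34662635 to 48228216 counts. MEX3A itself stood at 19.6, 21.0 and 22.2 CPM (the read count relative to a TMM-scaled library total) in the shMEX3A libraries, against 68.8, 70.7 and 67.6 CPM in the shCtrl libraries. Its log2 fold change was -1.72 (SE 0.046, adjusted p = 1.52e-28, edgeR quasi-likelihood test). All 8 epithelial and clear cell markers listed were tested, with PAX8 at 291 to 300.1 CPM in shMEX3A and 189 to 197 CPM in shCtrl, whereas NAPSA stayed under 1 CPM in every library. The 10 leukocyte markers summed to 10.9 to 11.3 CPM in shMEX3A and 7.75 to 8.91 CPM in shCtrl, nearly all of it from CD68 and ITGAM. CD3E and NKG7 had a count of 0 in every library, and PTPRC did not exceed 0.0564 CPM. The 8 fibroblast markers summed to 1249 to 1284 CPM in shMEX3A and 584 to 596 CPM in shCtrl, nearly all of it from COL1A2 (1140.0 CPM in shMEX3A and 569.8 CPM in shCtrl on average) and COL1A1 (117 and 13.1 CPM), while PDGFRA, PDGFRB, LUM, COL3A1 and FAP were too low to be tested. The 7 endothelial markers summed to 0.797 to 1.14 CPM in shMEX3A and 1.01 to 1.18 CPM in shCtrl. Of the 3 tested, CDH5 was called higher (log2 fold change 3.29), ERG lower (-1.49), and PECAM1 was not called (-0.79). CDH5 did not exceed 0.0564 CPM in shCtrl, and ERG did not exceed 0.149 CPM in shMEX3A. Both levels were below the filter's 0.247 CPM, so a difference was built into their testing. The part of all these markers in the results below was not tested. In bulk RNA, more cells that express a gene and more RNA per cell cannot be told apart.

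Most of the tested interferon and sensing genes rose in shMEX3A, and the IFIT genes were the main exception. Of the 49 tested, 36 were called higher and 6 lower at an adjusted p of 0.05, and 7 were not called. Calls were common in the whole table: 69.7% of all tested genes were called, with 34.0% of all tested genes higher and 35.6% lower in shMEX3A. The median log2 fold change was 0.39 over the 49 genes and -0.01 over all tested genes. The 3 libraries of one arm lay wholly above or below those of the other for 37 of these genes with shMEX3A higher and for 6 with shMEX3A lower, where the shares over all tested genes were 35.4% and 36.9%. A rise of at least 2-fold was called for 10 of the 49 genes and for 6.95% of all tested genes, and none of the 49 fell that far. These counts of rises include IFI27, IFI44 and GBP2, which passed the low-count filter through the shMEX3A libraries alone. A difference was thus built into the testing of these 3 genes. The plot of fold changes by role shows every tested gene.

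**Figure D1:**
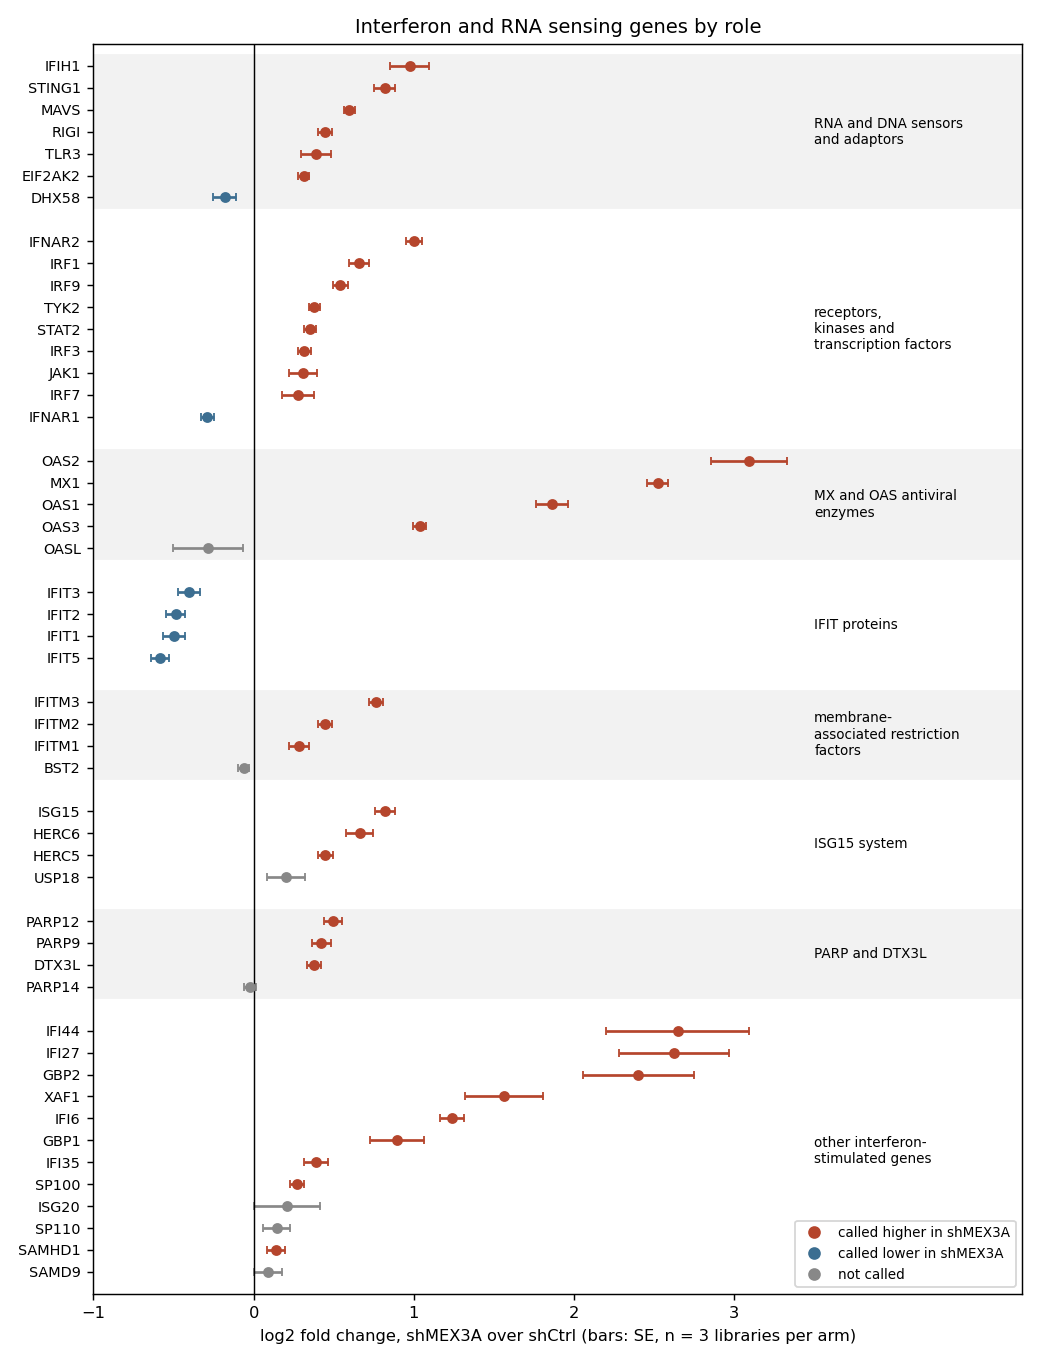
Log2 fold change, shMEX3A over shCtrl, of the 49 tested genes in 8 role groups, with bars for the SE over 3 libraries per arm. The IFIT genes lie between -0.58 and -0.40, while OAS2, IFI44, IFI27, MX1 and GBP2 lie above 2. Of these, IFI44, IFI27 and GBP2 passed the low-count filter through the shMEX3A libraries alone.

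**Figure D2:**
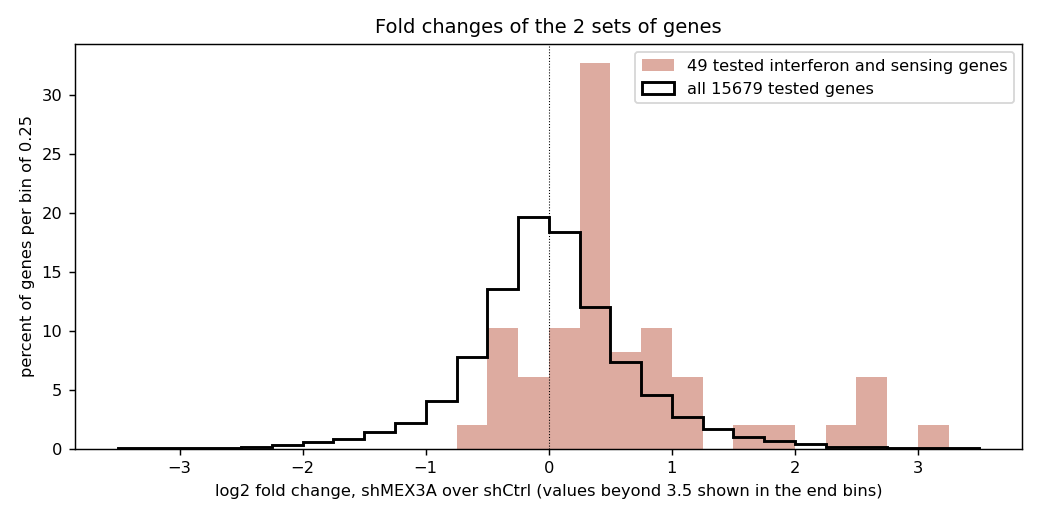
Percent of genes in each bin of log2 fold change (width 0.25), shMEX3A over shCtrl, for the 49 tested genes (filled) and all 15679 tested genes (line). The filled distribution has its median at 0.39 and the line at -0.01.

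The promoter sequences of genes that went in opposite directions are shown first, because some genes of both kinds carried the same short motif. RefSeq promoter windows (GRCh38.p14, 250 bases before to 50 after each annotated start) were matched for 39 of the 52 genes. They were searched on both strands for the ISRE core, which is GAAA, any 2 bases and GAAA, or TTTC, any 2 bases and TTTC when read on the other strand, with overlapping matches counted. The core was found for 24 of the 39 genes (61.5%) and for 4.38% of all 27305 genes with a window. Below, 5'-to-3' along each gene, are the stretches around the matches for members that rose at least 2-fold, for the IFIT genes, for BST2, which was not called, and for a site in the windows of both DTX3L and PARP9, whose match at chr3:122564332-122564341 spans the DTX3L start. Capitals mark the GAAA and TTTC blocks of each match. Not all of these members had a match to show. OAS1 and XAF1, which rose at least 2-fold, had windows without the core. OAS2, GBP2 and IFNAR2, which also rose at least 2-fold, and IFIT2 had no window.
MX1, first start (chr21:41420554-41420593, plus strand): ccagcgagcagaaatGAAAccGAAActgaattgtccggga
MX1, another start (chr21:41431839-41431878, plus strand): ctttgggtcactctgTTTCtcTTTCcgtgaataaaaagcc
OAS3 (chr12:112938316-112938486, plus strand): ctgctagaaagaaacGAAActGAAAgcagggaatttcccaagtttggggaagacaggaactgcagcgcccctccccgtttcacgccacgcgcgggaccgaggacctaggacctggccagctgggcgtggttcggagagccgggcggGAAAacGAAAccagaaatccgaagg
IFI6 (chr1:27672261-27672363, minus strand): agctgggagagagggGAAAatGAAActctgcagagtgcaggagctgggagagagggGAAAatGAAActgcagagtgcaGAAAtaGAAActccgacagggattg
IFI27 (chr14:94110613-94110665, plus strand): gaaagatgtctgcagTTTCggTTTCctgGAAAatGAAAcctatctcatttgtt
IFI44 (chr1:78649756-78649795, plus strand): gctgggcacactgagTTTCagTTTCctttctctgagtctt
IFIT1 (chr10:89392492-89392544, plus strand): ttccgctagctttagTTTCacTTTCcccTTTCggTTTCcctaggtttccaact
IFIT3, first start (chr10:89327826-89327899, plus strand): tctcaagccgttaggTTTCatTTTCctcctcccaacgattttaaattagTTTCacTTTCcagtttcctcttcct
IFIT3, another start (chr10:89332420-89332502, plus strand): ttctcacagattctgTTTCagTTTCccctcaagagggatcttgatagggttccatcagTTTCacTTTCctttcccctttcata
IFIT5 (chr10:89414508-89414588, plus strand): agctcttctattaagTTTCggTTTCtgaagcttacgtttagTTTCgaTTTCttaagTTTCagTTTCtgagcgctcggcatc
BST2 (chr19:17405730-17405775, minus strand): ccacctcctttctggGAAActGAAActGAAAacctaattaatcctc
DTX3L, site also in a PARP9 window (chr3:122564317-122564356, plus strand): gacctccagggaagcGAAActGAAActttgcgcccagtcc

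Genes with as many matches went either way: IFIT5 was lower in shMEX3A with 3 matches in a window, and IFI6, IFIH1 and HERC5, also with 3, were higher. With 2 matches IFIT1 and IFIT3 were lower, and OAS3, ISG15, IFITM1, IFITM3 and IFI27 were higher. BST2 held 2 overlapping matches and was not called. Among tested members with the core in a window, 16 of 23 were called higher, 3 lower and 4 not called, with a median log2 fold change of 0.42. Among those with a window but no core, 13 of 15 were higher, 1 lower and 1 not called, with a median of 0.39. The gamma-activated site TTCNNNGAA, which reads the same on both strands, was found for 11 of the 39 genes (28.2%) and for 9.38% of all genes with a window. It overlapped an ISRE match in the printed stretches of IFI27, BST2 and the MX1 start at chr21:41431839. A match is a string of letters only, and binding was not measured.

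**Figure D3:**
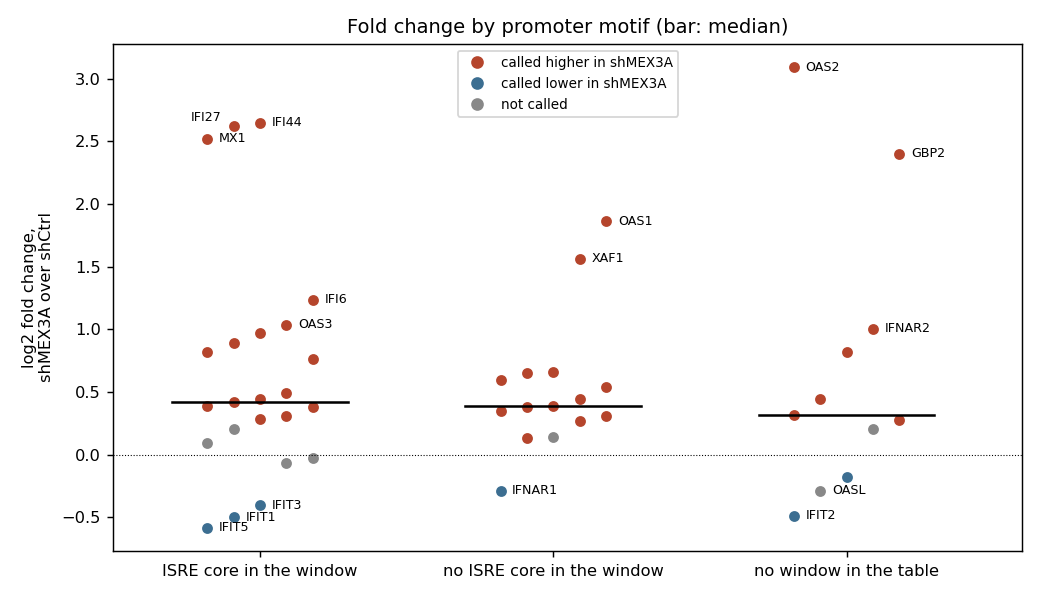
Log2 fold change, shMEX3A over shCtrl, of the tested genes, split by whether a promoter window held the ISRE core; bars are medians, and genes without a window in the table stand apart. Genes with the core (median 0.42) and without it (median 0.39) span both directions, and IFIT1, IFIT3 and IFIT5 are the called falls among those with it.

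Among the sensors and adaptors, 6 of 7 tested genes rose and DHX58 fell. RIGI, which detects RNA with a 5'-triphosphate, stood at 41.4, 40.4 and 41.3 CPM in shMEX3A, against 29.5, 30.4 and 30.5 CPM in shCtrl (log2 fold change 0.45, SE 0.046, adjusted p = 4.21e-11). IFIH1, also known as MDA5, detects long double-stranded RNA and had 6.32, 5.94 and 4.99 CPM in shMEX3A, against 3.29, 3.07 and 2.44 CPM in shCtrl (0.97, SE 0.123, adjusted p = 7.24e-09). For both sensors every shMEX3A library was above every shCtrl library. DHX58, also known as LGP2, lacks the signalling domains of the other RIG-I-like receptors. It had 11.6, 11.2 and 12.7 CPM in shMEX3A, against 13.3, 13.4 and 13.3 CPM in shCtrl (-0.18, SE 0.070, adjusted p = 0.0209). That call was lost with DESeq2 (adjusted p = 0.108), without shMEX3A replicate 1 (0.0582) and without shMEX3A replicate 2 (0.118), while offsets for GC content and length gave -0.27 (adjusted p = 0.000493).

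MAVS is the mitochondrial adaptor through which RIG-I and MDA5 signal. It was at 274, 275 and 276 CPM in shMEX3A, against 170.0, 186 and 189 CPM in shCtrl (log2 fold change 0.60, SE 0.034, adjusted p = 9.08e-18). STING1, the adaptor downstream of cGAS in the endoplasmic reticulum, was at 23.5, 23.5 and 22.2 CPM in shMEX3A, against 12.3, 12.7 and 14.3 CPM in shCtrl (0.82, SE 0.063, adjusted p = 2.47e-14). CGAS itself, the DNA sensor, was hardly detected, with 1, 2 and 2 counts in the shMEX3A libraries and 5, 0 and 0 counts in the shCtrl libraries, and was not tested. EIF2AK2, also known as PKR, is a kinase that halts translation on binding double-stranded RNA. It had 102, 104 and 104 CPM in shMEX3A, against 82.1, 84.7 and 83.2 CPM in shCtrl (0.31, SE 0.035, adjusted p = 3.15e-10). TLR3, the endosomal receptor for double-stranded RNA, rose by 0.39 on the log2 scale (SE 0.092). MAVS showed the highest level per length among these genes, at 23.4 CPM per kb of exon in shMEX3A and 15.4 CPM per kb in shCtrl, while RIGI was at 9.43 and 6.92 CPM per kb.

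The receptor chains of type I interferon went in opposite directions, although their genes are neighbours on chromosome 21. IFNAR2, the chain with the longer signalling tail, had 45.02, 44.7 and 44.6 CPM in shMEX3A, against 20.7, 22.7 and 23.6 CPM in shCtrl (log2 fold change 1.00, SE 0.050, adjusted p = 4.79e-20). IFNAR1, its partner, had 40.4, 40.2 and 41.8 CPM in shMEX3A, against 48.5, 49.4 and 51.5 CPM in shCtrl (-0.29, SE 0.042, adjusted p = 1.45e-07). Neither gene's libraries overlapped between the arms. IFNAR2 spans chr21:33229901-33265675 and IFNAR1 chr21:33324477-33359862, both on the plus strand (GRCh38, GENCODE 29). Exons of other annotated genes, AP000295.1 among them, cover 83.2% of the IFNAR2 exon bases and none of those of IFNAR1, and the counting of shared reads is not described in the labels.

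All 7 listed kinases and transcription factors of sensor and receptor signalling rose. TYK2, a receptor-bound kinase, was at 124, 127 and 131 CPM in shMEX3A, against 96.9, 100.4 and 96.4 CPM in shCtrl (log2 fold change 0.38, SE 0.034, adjusted p = 1.63e-12). JAK1, the other receptor kinase, was at 8.01 ± 0.164 CPM in shMEX3A and 6.46 ± 0.285 CPM in shCtrl (SD, n = 3 each) and rose by 0.31. Both partners of the DNA-binding complex in the list rose, STAT2 by 0.35 (SE 0.037) and IRF9 by 0.54 (SE 0.049). IRF1, a factor that acts on many of the same promoters, rose by 0.66 (SE 0.063). The factors that switch on interferon genes showed smaller rises, at 0.32 for IRF3 (SE 0.042) and 0.28 for IRF7 (SE 0.099). With offsets for GC content and length TYK2 was at 0.14 (adjusted p = 8.40e-05) and IRF3 at 0.20 (adjusted p = 2.99e-05). IRF7 lost its call with DESeq2 (adjusted p = 0.0778), with offsets for GC content and length (0.0612), and without shCtrl replicate 2 (0.0598) or shCtrl replicate 3 (0.0761). Exons of other genes cover 48.4% of the exon bases of IRF9, 22.0% of those of IRF1 and 19.3% of those of IRF3.

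Of the 5 tested MX and OAS genes 4 rose, all at least 2-fold, and the median log2 fold change of 1.87 was the highest of the role groups. MX1 encodes a dynamin-like GTPase that traps viral nucleocapsids and lies at chr21:41420304-41459214 on the plus strand. It was at 37.8, 35.9 and 35.6 CPM in shMEX3A, against 6.61, 5.78 and 6.56 CPM in shCtrl, a 5.75-fold higher level (log2 fold change 2.52, SE 0.065, adjusted p = 4.45e-29). The lowest shMEX3A library was thus far above the highest shCtrl library. Its neighbour MX2, which restricts lentiviruses, was counted 14, 5 and 6 times in the shMEX3A libraries and 2, 1 and 0 times in the shCtrl libraries, and did not pass the filter. Without the filter MX2 had a log2 fold change of 2.88 (adjusted p = 0.00450).

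The oligoadenylate synthetases OAS1, OAS2 and OAS3 make the second messenger that activates the ribonuclease RNase L. Their genes lie together at chr12:112906777-113011723, and all 3 rose. OAS1 had 9.66, 9.47 and 10.3 CPM in shMEX3A, against 2.68, 2.85 and 2.54 CPM in shCtrl (log2 fold change 1.87, SE 0.100, adjusted p = 5.20e-19). OAS2 had the largest fold change of the 49 genes, at 3.09 (SE 0.237, adjusted p = 1.92e-14), with 2.42, 2.76 and 2.63 CPM in shMEX3A, against 0.297, 0.367 and 0.249 CPM in shCtrl. OAS3, the most abundant of them, had 68.4, 65.1 and 64.3 CPM in shMEX3A, against 32.3, 32.2 and 31.9 CPM in shCtrl (1.04, SE 0.042, adjusted p = 5.45e-23). Per length, OAS3 also stood highest, at 7.99 CPM per kb in shMEX3A and 3.90 CPM per kb in shCtrl, with OAS1 at 1.98 and 0.544 CPM per kb. OASL, a related protein without synthetase activity that lies elsewhere on chromosome 12, was not called. It had 1.11, 1.21 and 0.974 CPM in shMEX3A, against 1.14, 1.61 and 1.32 CPM in shCtrl (-0.29, SE 0.217, adjusted p = 0.242), and the arms overlapped.

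**Figure D4:**
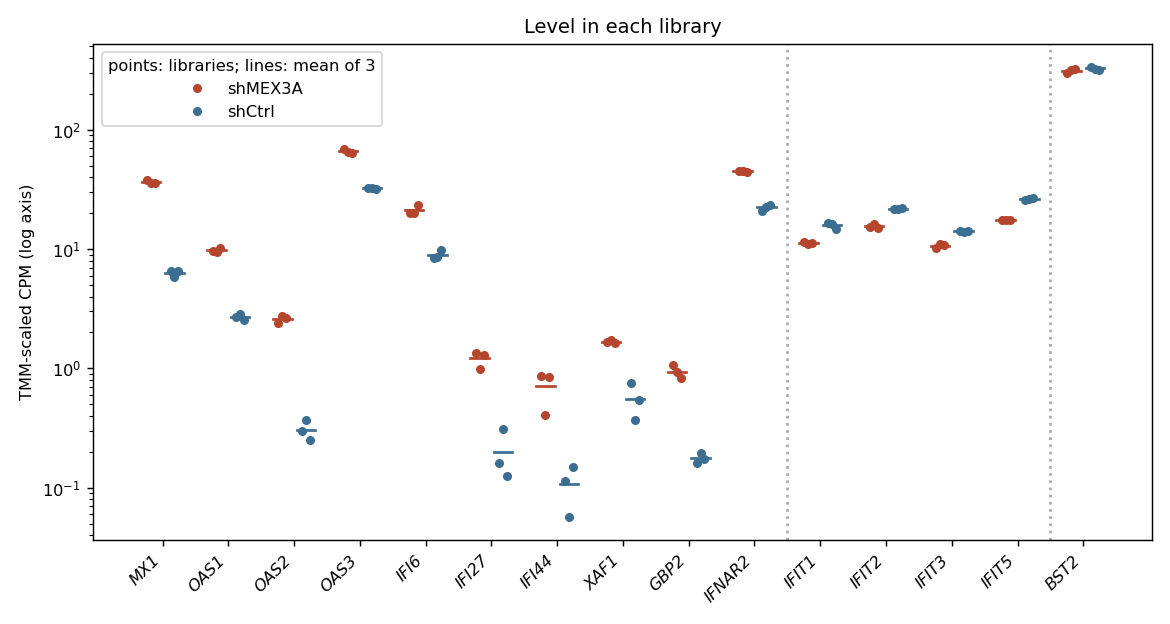
TMM-scaled CPM on a log axis in each library of shMEX3A (left in each pair) and shCtrl, with lines at the mean of 3, for the members that rose at least 2-fold, the IFIT genes and BST2. The arms part upwards for the first set and downwards for the IFIT genes, and overlap for BST2.

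All 4 IFIT genes fell. Among their products, IFIT1 binds viral RNA that lacks the host's cap modifications, and the genes lie in 1 cluster at chr10:89283694-89421001. IFIT1 was at 11.4, 11.1 and 11.2 CPM in shMEX3A, against 16.4, 16.2 and 14.8 CPM in shCtrl (log2 fold change -0.50, SE 0.068, adjusted p = 4.12e-08). IFIT2 was at 15.4, 16.2 and 15.0 CPM in shMEX3A, against 21.5, 21.7 and 22.1 CPM in shCtrl (-0.49, SE 0.059, adjusted p = 3.01e-09). IFIT3, which stabilises IFIT1, was at 10.3, 11.0 and 10.8 CPM in shMEX3A, against 14.3, 13.9 and 14.2 CPM in shCtrl (-0.40, SE 0.069, adjusted p = 2.61e-06). In each case all shMEX3A libraries were below all shCtrl libraries. IFIT5 was at 17.5, 17.4 and 17.7 CPM in shMEX3A, against 25.9, 26.0 and 26.8 CPM in shCtrl (-0.58, SE 0.055, adjusted p = 5.33e-12). These 4 made up most of the 6 falls, beside IFNAR1 and DHX58. With offsets for GC content and length IFIT3 was at -0.22 (adjusted p = 0.00353), and the others stayed between -0.44 and -0.37.

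Among the membrane-associated restriction factors the 3 IFITM genes rose and BST2 was not called. IFITM proteins block fusion of virus with endosomal membranes. IFITM3 was at 76.4, 74.5 and 78.4 CPM in shMEX3A, against 47.6, 46.1 and 41.3 CPM in shCtrl (log2 fold change 0.76, SE 0.043, adjusted p = 5.79e-17). IFITM2 was at 66.0, 65.4 and 66.5 CPM in shMEX3A, against 52.6, 46.6 and 45.5 CPM in shCtrl (0.45, SE 0.044, adjusted p = 8.46e-11). IFITM1 rose by 0.28 (SE 0.062). The 3 are close paralogs within chr11:307631-327537, and 21.3% to 32.5% of their exon bases lie under exons of another gene, so their separate values are uncertain. BST2, or tetherin, holds budding virus on the cell surface and had the highest level per length of the 52 genes in both arms. It was at 298, 316 and 322 CPM in shMEX3A, against 338, 323 and 316 CPM in shCtrl (-0.06, SE 0.032, adjusted p = 0.0817), with overlapping arms. In 4 alternatives it was called lower, with the smallest p under the GC and length offsets (-0.10, adjusted p = 0.000708).

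ISG15, a ubiquitin-like protein attached to targets after interferon treatment, rose together with the HERC ligases. It was at 23.1, 21.7 and 23.2 CPM in shMEX3A, against 12.8, 13.1 and 12.6 CPM in shCtrl (log2 fold change 0.82, SE 0.061, adjusted p = 8.59e-15). HERC5, the main ligase for ISG15 in human cells, was at 44.8, 41.1 and 41.4 CPM in shMEX3A, against 31.0, 31.1 and 31.4 CPM in shCtrl (0.45, SE 0.047, adjusted p = 7.72e-11). Both genes were apart between the arms. Its neighbour HERC6 rose by 0.66 (SE 0.081). USP18, which removes ISG15 and restrains the receptor, had 4.34 ± 0.387 CPM in shMEX3A and 3.77 ± 0.380 CPM in shCtrl (SD, n = 3 each; 0.20, SE 0.118, adjusted p = 0.126).

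Of the interferon-induced ADP-ribosyltransferases and their partner DTX3L, 3 of 4 rose. PARP12 was at 29.3, 29.8 and 26.3 CPM in shMEX3A, against 20.9, 19.97 and 19.9 CPM in shCtrl (log2 fold change 0.49, SE 0.056, adjusted p = 5.72e-10). DTX3L, a ubiquitin ligase that works as a complex with PARP9, was at 41.3, 42.5 and 40.6 CPM in shMEX3A, against 31.3, 33.4 and 31.2 CPM in shCtrl (0.38, SE 0.046, adjusted p = 3.19e-09). PARP9, on the other strand, with a window that holds the same ISRE core match as that of DTX3L, rose by 0.42 (SE 0.058). PARP14, in the same stretch of chromosome 3, was at 62.7, 63.4 and 62.1 CPM in shMEX3A, against 62.4, 65.8 and 63.4 CPM in shCtrl (-0.02, SE 0.037, adjusted p = 0.569). Its window also held the core.

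The other 13 interferon-stimulated genes included 5 of the 10 rises of at least 2-fold, and of the 12 tested none fell. IFI6, a mitochondrial and endoplasmic reticulum protein that limits apoptosis, was at 19.9, 20.1 and 23.3 CPM in shMEX3A, against 8.48, 8.52 and 9.73 CPM in shCtrl (log2 fold change 1.24, SE 0.074, adjusted p = 2.54e-17). XAF1, which antagonises the inhibitor of apoptosis XIAP, was at 1.67, 1.74 and 1.62 CPM in shMEX3A, against 0.755, 0.367 and 0.549 CPM in shCtrl (1.56, SE 0.245, adjusted p = 5.55e-07). Other genes' exons cover 38.3% of the XAF1 exon bases. For both genes the arms stood apart.

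The steepest rises of this set came from genes hardly detected in shCtrl. IFI27 was at 1.36, 0.998 and 1.30 CPM in shMEX3A, against 0.160, 0.310 and 0.125 CPM in shCtrl (2.62, SE 0.341, adjusted p = 1.29e-08). IFI44 was at 0.872, 0.403 and 0.856 CPM in shMEX3A, against 0.114, 0.0564 and 0.150 CPM in shCtrl (2.65, SE 0.446, adjusted p = 2.16e-06). GBP2, a guanylate-binding protein, was at 1.07, 0.934 and 0.826 CPM in shMEX3A, against 0.160, 0.197 and 0.175 CPM in shCtrl (2.40, SE 0.348, adjusted p = 1.26e-07). These 3 passed the low-count filter through the shMEX3A libraries alone, so a difference was built into their being tested, and shares taken over the 49 genes include them. IFI44L, the neighbour of IFI44, had 12, 25 and 8 counts in the shMEX3A libraries and 4, 4 and 1 in the shCtrl libraries and was not tested. Without the filter its log2 fold change was 2.19 (adjusted p = 0.000894).

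Of the 7 other tested members of that group 4 rose, each less than 2-fold. GBP1 rose by 0.90 (SE 0.168), IFI35 by 0.39 (SE 0.077) and SP100, a component of nuclear bodies, by 0.27 (SE 0.045). SAMHD1, which depletes deoxynucleotides, rose by 0.14 (SE 0.056, adjusted p = 0.0294), with 21.0, 22.4 and 21.9 CPM in shMEX3A and 19.8, 19.6 and 20.03 CPM in shCtrl. Its call was lost without the low-count filter (adjusted p = 0.0765), with DESeq2 (0.100) and without any 1 library other than shMEX3A replicate 1 (0.0514 to 0.108). ISG20 (0.21, SE 0.207), SP110 (0.14, SE 0.085) and SAMD9 (0.09, SE 0.089) were not called.

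Some members sit side by side in the genome. Taking members with gaps of at most 200 kb between them, 10 groups held 25 of the 52 genes. The clusters of OAS (3 higher), IFITM (3 higher), GBP (2 higher), HERC (2 higher) and IFIT (4 lower) each had all members called one way, and the other 5 groups did not. The receptor genes on chromosome 21 were the one group with a called rise beside a called fall. Neighbouring genes may share regulatory DNA, which was not tested, so they cannot be counted as independent of each other.

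The wider pathway was covered by 4 further gene lists. For comparison, 34.0% of all tested genes were called higher and 35.6% lower in shMEX3A. In the first and the third of them 1 gene each passed the low-count filter through 1 arm alone. Of 26 tested regulators of sensing 14 (53.8%) rose and 7 (26.9%) fell (median log2 fold change 0.13). The MAVS regulator NLRX1 rose by 0.62 (SE 0.044) and ZCCHC3, a cofactor of the sensors, by 0.61 (SE 0.042), while ZC3HAV1, the zinc finger antiviral protein, changed by -0.48 (SE 0.033) and the RNase H2 subunit RNASEH2A by -0.71 (SE 0.048). Of 17 tested receptor, JAK-STAT and brake genes 9 (52.9%) rose and 5 (29.4%) fell (median 0.18). STAT3 was at 0.55 (SE 0.029), the phosphatase PTPN1 at 0.31 (SE 0.036), IRF2BP2 at -0.36 (SE 0.033) and the phosphatase PTPN2 at -0.51 (SE 0.071). Of 38 tested genes among 48 further interferon-stimulated ones 21 (55.3%) rose and 10 (26.3%) fell (median 0.22). LGALS3BP, a secreted glycoprotein, reached 653 to 705 CPM in shMEX3A, against 232 to 239 CPM in shCtrl (1.52, SE 0.031), and HELZ2 rose by 1.43 (SE 0.039). TRIM38 (-0.79, SE 0.038) and TOR1B (-0.94, SE 0.050) fell.

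Interferon genes themselves had few counts. Of 21 listed, 18 had a count of 0 in all 6 libraries, which allows a level of up to 0.0885 CPM in the shallowest library (3 counts, counting error only). The listed IFNA genes are paralogs, and the counting of reads shared between genes is not described in the labels. A level above that limit is therefore possible for them. IFNB1 had 1 count, in shMEX3A replicate 2, and IFNA5 had 1 count, in shCtrl replicate 1. IFNE, an interferon made by epithelium of the female reproductive tract, was the only one tested. It passed the low-count filter through the shMEX3A libraries alone, so a difference was built into its being tested. IFNE had 1.21, 0.701 and 0.767 CPM in shMEX3A, against 0.206, 0.367 and 0.0748 CPM in shCtrl (log2 fold change 2.07, SE 0.386, adjusted p = 1.51e-05), or 50, 33 and 26 counts against 9, 13 and 3.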

How the data were processed

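The authors deposited raw counts of reads for each gene in 6 columns, 1 per library. The submitters' processing notes name GRCh38 as build and list STAR, fastp (0.20.0), edgeR (4.0.16) and HTSeq (2.0.4). Neither the annotation nor the strandedness used for counting is stated in the labels, so a read under exons of 2 genes, or of a gene and its antisense partner, may belong to either. With R 4.3.3, filterByExpr in edgeR 4.0.16 kept 15679 genes and TMM scaled the libraries. A robust quasi-likelihood test (4 residual degrees of freedom, common biological coefficient of variation 3.41%) gave p-values, which were adjusted across the whole set of tested genes (Benjamini-Hochberg). The SE of a log2 fold change comes from its F statistic, and CPM are TMM-scaled. Libraries of 1 arm differed by more than sampling noise (chi-square per degree of freedom 2.69 to 6.15), and none was treated as a duplicate. Separate cultures are not stated, and the p-values may therefore reflect technical spread alone. Exon lengths, GC content and overlaps came from GENCODE 29 on GRCh38.

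Members and gene lists were chosen with earlier results of these data known. Values per library are given for members called with a fold of at least 2, for the 2 called members with the smallest p per direction in each role group, and for RIGI, IFIH1, DHX58, EIF2AK2, IFNAR1 and IFNAR2. Of each pathway list the 2 per direction chosen the same way are named. Values per library of other members were added after they had been seen. Alternatives replaced TMM by upper-quartile or DESeq2 size factors, dropped the low-count filter or required at least 1 CPM in 3 libraries, replaced the test by DESeq2 1.42.0 or limma 3.58.1 (voom), added the replicate number as a block or offsets for GC content and length (natural splines with 5 degrees of freedom), or left out each library. Tested on counts simulated for these arms (15679 genes), the fit called every one of the 34 genes over 10 CPM given a 2-fold change, of the 35 given 1.5-fold and of the 48 given 1.25-fold, and made 9 false calls in all. Over genes of any level it called 56 of 59, 47 of 59 and 53 of 82, so small changes of weakly expressed genes could be missed. The simulation used the same coefficient of variation for every gene and changed only a small part of them. In the data 69.7% of all tested genes were called, so recovery and false calls there may differ.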

Additional observations from a re-analysis of the deposited data

How the results depend on the processing

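Of the values for single members under the alternatives, 709 kept their direction and side of the threshold, 14 lost a call (DHX58, IRF7 and SAMHD1), 8 gained one (BST2, USP18, SP110 and SAMD9) and 1 turned round: PARP14, not called, was at 0.037 with GC and length offsets. The members called higher ranged from 33 to 38 and those called lower from 5 to 7 over all alternatives. MEX3A ranged from -1.86 to -1.68 in log2 fold change. The median log2 fold change of the tested members was 0.40 with DESeq2 size factors, 0.38 without the low-count filter, 0.42 with GC and length offsets and 0.41 without offsets on those genes that have a GC value, a setting added after seeing the data. Leaving out 1 library, it ranged from 0.38 to 0.44, members higher from 35 to 37, members lower from 5 to 7, and MEX3A from -1.77 to -1.68. With the replicate block 36 members were higher and 6 lower, as without it; the numbers did not pair the arms, since correlations of same-numbered libraries' deviations lay from -0.0769 to 0.0772. Low levels limited the testing of weakly expressed members. With at least 1 CPM in 3 libraries IFI27, IFI44 and GBP2 were not tested, and CGAS, MX2 and IFI44L had too few counts for the main test.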

Other observations

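Outside the interferon lists, genes with an ISRE core in a promoter window went up and down in similar numbers. Of 425 tested genes in no interferon list with the core, 153 (36.0%) were called higher in shMEX3A and 142 (33.4%) lower, with a median log2 fold change of 0.01. Of 11474 such genes without the core, 33.9% were higher and 37.2% lower, with a median of -0.02. The core is short and occurs in windows by its letters alone, and these shares are given as a description with no test.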
